A study of Homo sapiens with 4 samples.

Results

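The Krüppel-associated box zinc finger protein (KZFP) gene cluster of 7q11.21 was taken as the stretch of chromosome 7 from 63400000 to 65000000 in GRCh37 (hg19), that is 1.6 Mb on the long arm next to the centromere. Its bounds are positions and no methylation value entered them, but it was picked for description with earlier results of these data known. Of 27710999 CpGs of the autosomes and X with a read in at least 1 library, 16742 lay in it. It holds 12 annotated protein-coding genes, in order from the centromeric side ZNF722, ZNF727, ZNF735, ZNF679, ZNF736, ZNF680, ZNF107, ZNF138, ZNF273, ZNF117, ERV3-1 and ZNF92, besides 75 other annotated genes, most of them pseudogenes and long noncoding RNAs.

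CpG methylation was read out with enzymatic methyl sequencing (EM-seq), where an unmethylated cytosine appears as T and a methylated one as C. HEK293T cells, an established line of human embryonic kidney origin, were either wild type (WT) or carried a CRISPR-Cas9 knockout of ZNF274 (ZNF274KO), with 2 libraries per genotype and no other treatment. The knockout cells were grown from sorted single cells after a pair of guides that flank the gene, so a difference between genotypes can also be a difference between clones, and the labels do not say whether the libraries of a genotype came from separate clones or cultures. The p-values therefore measure the spread between libraries, which may be technical. ZNF274, on chromosome 19 from 58694396 to 58724928, carried 5158 and 4274 reads in WT 1 and WT 2 over its 501 CpGs, and 0 and 14 in ZNF274KO 1 and ZNF274KO 2.

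KZFPs are DNA-binding repressors. Their KRAB domain recruits TRIM28 and with it SETDB1, the enzyme that places histone H3 lysine 9 trimethylation, while an array of zinc fingers encoded by the last exon reads the DNA. The genes lie in tandem clusters that grew by duplication, and the clusters themselves are covered by the same silencing mark. ZNF274 is a KRAB zinc finger protein that binds the zinc finger exons of other KZFP genes. CpG methylation (mCG) in gene bodies is a usual companion of transcription, whereas active promoters with many CpGs are mostly unmethylated.

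The deposited counts cover CpGs only, so a level can only be read from them where a CpG stands. The 250 bases before the annotated start are given for ZNF679 and ZNF722, whose promoters rose most, and for ZNF117, whose promoter was lowest over the 4 libraries, together with stretches of 300 bases chosen after the values were seen. These are the most CpG-rich stretches of the coding part of the last coding exons of ZNF727 (chr7:63537654-63537953) and ZNF736 (chr7:63809160-63809459). The promoter stretches are chr7:63688602-63688851 and chr7:63458977-63459226 on the plus strand and chr7:64467063-64467312 on the minus strand. All are GRCh37, read 5′ to 3′, on the plus strand except for ZNF117, and the capitals mark each CpG.
ZNF679 promoter: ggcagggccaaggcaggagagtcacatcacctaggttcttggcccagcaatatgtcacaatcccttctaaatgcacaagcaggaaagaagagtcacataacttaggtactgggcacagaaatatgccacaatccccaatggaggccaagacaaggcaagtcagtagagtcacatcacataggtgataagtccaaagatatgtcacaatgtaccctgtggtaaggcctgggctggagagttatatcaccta
ZNF722 promoter: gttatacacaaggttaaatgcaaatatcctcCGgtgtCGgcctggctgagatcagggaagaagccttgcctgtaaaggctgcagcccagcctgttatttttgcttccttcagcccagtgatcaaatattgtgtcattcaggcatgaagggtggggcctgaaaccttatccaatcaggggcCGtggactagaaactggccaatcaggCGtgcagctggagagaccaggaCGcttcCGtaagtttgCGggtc
ZNF117 promoter: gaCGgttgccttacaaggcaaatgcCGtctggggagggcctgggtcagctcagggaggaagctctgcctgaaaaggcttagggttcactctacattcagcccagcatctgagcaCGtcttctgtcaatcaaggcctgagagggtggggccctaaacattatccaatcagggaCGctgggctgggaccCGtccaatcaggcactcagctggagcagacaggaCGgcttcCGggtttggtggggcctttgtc
ZNF727 coding stretch: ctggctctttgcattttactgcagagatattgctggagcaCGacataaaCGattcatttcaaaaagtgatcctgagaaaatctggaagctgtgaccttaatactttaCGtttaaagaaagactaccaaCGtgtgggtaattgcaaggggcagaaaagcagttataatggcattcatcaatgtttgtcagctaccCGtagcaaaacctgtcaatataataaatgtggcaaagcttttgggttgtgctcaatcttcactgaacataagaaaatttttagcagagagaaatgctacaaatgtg
ZNF736 coding stretch: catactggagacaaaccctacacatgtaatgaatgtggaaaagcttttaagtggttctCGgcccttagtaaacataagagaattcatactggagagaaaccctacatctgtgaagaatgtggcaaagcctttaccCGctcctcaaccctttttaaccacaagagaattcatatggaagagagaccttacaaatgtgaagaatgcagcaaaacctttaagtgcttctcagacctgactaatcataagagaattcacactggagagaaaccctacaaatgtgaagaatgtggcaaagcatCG
The ZNF679 stretch has no CpG, so these counts give no level there. The ZNF722 stretch has 7 CpGs, which pooled stood at 51.7% and 54.5% in WT 1 and WT 2 and at 54.0% and 57.1% in ZNF274KO 1 and ZNF274KO 2, over 44 to 77 reads. That pooled level joins CpGs that went opposite ways. The 3 CpGs nearest the start were lower in both knockout libraries than in both WT libraries, with means of 87.5%, 90% and 83.8% in WT against 55.1%, 52.3% and 59.6%, whereas the 2 CpGs before them were higher, at 0% and 6.25% against 42.1% and 41.7%, and the other 2 overlapped. Each rested on as few as 5 to 7 reads in a library, and none was tested singly. The 7 CpGs of the ZNF117 stretch had 0 methylated reads in all 4 libraries, with 62 to 83 reads each, which allows a level of up to 4.84% in the least covered library. The 5 CpGs of the ZNF727 stretch were at 3.77% and 3.23% in WT and at 44% and 37.5% in ZNF274KO, over 31 to 53 reads. The 3 CpGs of the ZNF736 stretch stood at 39.1% and 50% in WT and at 81.8% and 66.7% in ZNF274KO, over 21 to 33 reads. Singly their means were 85.7%, 42.4% and 19.4% in WT against 90%, 82.3% and 44.4%, on as few as 5 or 6 reads. The first overlapped between genotypes, and the second stood at 18.2% and 66.7% in WT 1 and WT 2.

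Over the whole cluster WT 1 and WT 2 had mCG levels of 51.4% and 50.9%, and ZNF274KO 1 and ZNF274KO 2 of 69.6% and 63.9%. Both knockout libraries stood above both WT libraries, and ZNF274KO 1 stood above ZNF274KO 2. The means were 51.1% ± 0.335 and 66.8% ± 4.07 (SD, n = 2), a difference of 15.6 percentage points. An exact two-sided permutation test over the libraries gave p = 0.333, which is the smallest value that 2 against 2 libraries allow. Over the same libraries the level of all autosomes and X was 59.8% ± 0.819 in WT and 59.3% ± 1.29 in ZNF274KO.

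The cluster held 148739 and 123337 reads over CpGs in WT 1 and WT 2, and 148170 and 130399 in ZNF274KO 1 and ZNF274KO 2, with a median of 7 to 9 reads per CpG. Reads are counted once for every CpG they cover. The cluster took a larger share of all reads in the knockout, 0.0538% and 0.0540% against 0.0504% and 0.0485% in WT. Between the first and the last tile that rose (below), the mean share was 0.0356% against 0.0318%, in the rest of the cluster 0.0183% against 0.0176%, and on all of chromosome 7 it was 5.93% against 5.77%. The part of this depth difference in the methylation result was not tested.

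The cluster was cut into 320 tiles of 5 kb, of which 319 had at least 20 reads and 5 CpGs in every library and were tested with all other tiles of the genome. Of these, 134 rose in ZNF274KO and 0 fell (edgeR quasi-likelihood test, adjusted p under 0.05), whereas of all 563514 tested tiles 0.424% rose and 0.0105% fell. The median mCG level of the tiles that rose was 10.6% in WT 1 and 10.9% in WT 2, and 65.6% in ZNF274KO 1 and 52.9% in ZNF274KO 2. Their rises ran from 14.9 to 67.7 points with a median of 42.3. Limma called 69 of the 319, beside 0.152% genome-wide, and 0 lower. At an unadjusted p under 0.05 in edgeR, 6 tiles were lower and 178 of the 319 passed in either direction. Genome-wide, 34753 of 563514 tiles passed that threshold in either direction. ZNF274KO 1 was above ZNF274KO 2 in 130 of the 134 that rose. Both knockout libraries were above both WT libraries in 193 of the 319 tiles (13.5% of tiles genome-wide) and below both in 40 (22.3% genome-wide). A tile had a median of 44 CpGs and at its thinnest 26 reads, where counting error alone (95% Wilson interval) reached 16.7 points either side. Duplicated reads would widen that.

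**Figure D1:**
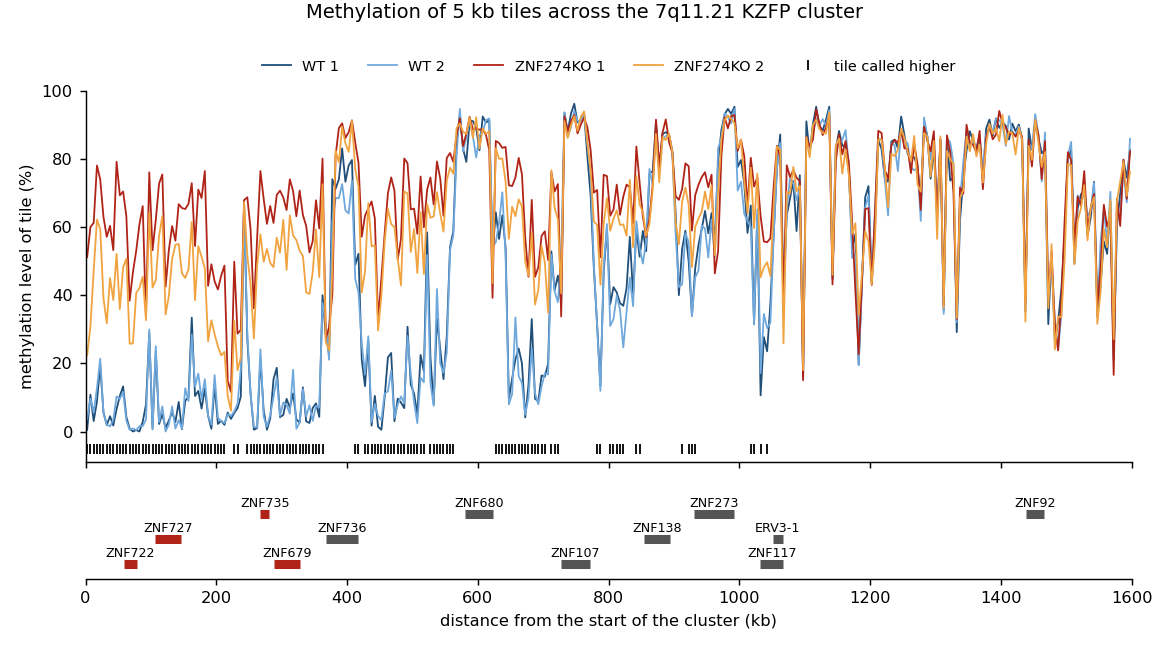
mCG level of each 5 kb tile (percent of reads methylated, upper panel) in the 2 WT (blue) and 2 ZNF274KO (red, orange) libraries against distance from the start of the cluster in kb, with ticks under the 134 tiles that rose and the 12 genes as bars, in red where the gene body rose. The libraries part over the first 1045 kb, most of all where WT is low, and run together over the last 555 kb.

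The tiles that rose were grouped. Of the 134, 121 lay in 8 runs of at least 3 neighbouring tiles. The longest run, chr7:63400001-63615000, spanned 43 tiles with ZNF722 and ZNF727 and stood at 10.8% and 10.97% in WT and at 61.9% and 44.9% in ZNF274KO. The next, chr7:63645001-63765000, with 24 tiles, held ZNF735 and ZNF679 and went from 11.9% and 12.4% to 66.4% and 52.6%. A run of 19 tiles, chr7:63825001-63920000, between ZNF736 and ZNF680, held no protein-coding gene and went from 14.4% and 12.9% to 66.1% and 57.3%. Runs of 8 and 16 tiles, also without a protein-coding gene, followed on either side of ZNF680 with rises of 39.5 and 33.8 points. Runs of 3, 5 and 3 tiles lay farther on, between ZNF680 and ZNF107, between ZNF107 and ZNF138, and at ZNF273. The last tile that rose began 1040 kb from the start of the cluster, and from there to the end the pooled level was 69.9% ± 0.487 in WT and 69.5% ± 0.717 in ZNF274KO.

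Of the tiles with at least 20 CpGs, the 5 with the largest rises were all between the centromeric edge and ZNF680. The first, chr7:63885001-63890000, between ZNF736 and ZNF680, stood at 6.86% and 8.33% in WT and at 80.2% and 70.5% in ZNF274KO (edgeR adjusted p = 1.62e-05). Neighbouring tiles in the body of ZNF727, chr7:63515001-63520000 and chr7:63510001-63515000, rose by 63.1 and 62.7 points. A tile in the body of ZNF679, chr7:63710001-63715000, rose by 62.7 points, and chr7:63870001-63875000, between genes, by 61.9 points, from 3.02% and 4.02% to 70.7% and 60%. At the other end of the order, no tile passed the test. The lowest was chr7:63775001-63780000 near the start of ZNF736, at 74.1% and 61.7% in WT and 40.2% and 47.5% in ZNF274KO (edgeR adjusted p = 0.0548). The next 4, in ZNF273, ZNF138, at the start of ZNF680 and between ERV3-1 and ZNF92, had differences from -19.5 to -10.01 points with edgeR adjusted p of 0.110 to 0.858.

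The tiles that rose lay mostly where WT was low. Of 98 tiles with a WT mean under 20%, 92 rose. Of 41 tiles from 20% to 40% it was 24, of 38 tiles from 40% to 60% it was 15, of 62 tiles from 60% to 80% it was 3, and of 80 tiles above that it was 0. The median difference went in the same order from 46.3 to 26.4, 16.9, 2.51 and -1.04 points. The WT level enters both axes of that relation, so it was also drawn with separate WT libraries: over the 319 tiles the level in WT 1 and the difference from WT 2 had Pearson's r = -0.82 and Spearman's rho = -0.77, and with the WT libraries exchanged r = -0.85 and rho = -0.82. Using separate WT libraries removes shared counting error only, since the WT libraries stood close together. A tile high in WT has little room to rise, so a negative relation is in part arithmetic. Neighbouring tiles are not independent and all points share the same 4 libraries, so these values are a description. CpG density and base composition share no term with the difference, so their values cannot be set against those of the WT level. They were r = -0.21 for CpGs per kb and r = -0.04 for GC content. Tiles that rose had a median of 7.60 CpGs per kb and 41.1% GC, and tiles that were not called 9.60 and 40.3%.

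**Figure D2:**
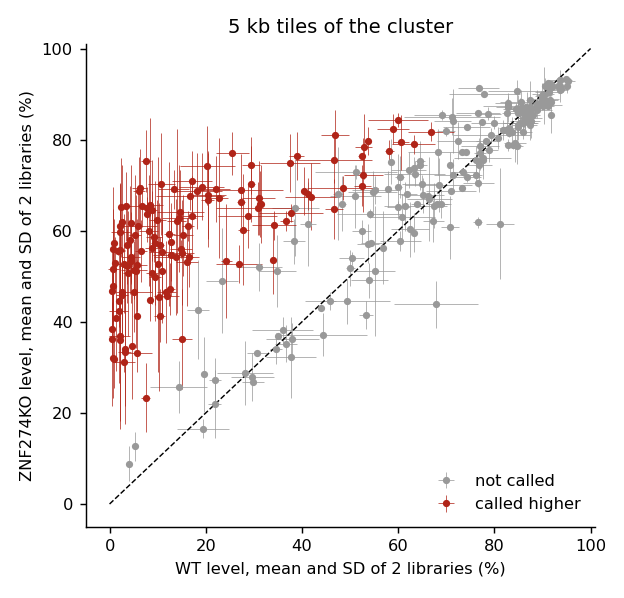
Mean mCG level of each of the 319 tested 5 kb tiles in ZNF274KO against WT (percent), with bars of 1 SD over the 2 libraries of each genotype and a dashed line of equal levels. Tiles that rose (red) sit at the left, 92 of them under 20% in WT, and tiles above 80% in WT lie along the line.

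Most tiles that rose lay outside protein-coding genes. Of 225 tested tiles over no such gene, 102 rose, and of 94 tiles over one, 32 did. The 59.2 kb between the start of the cluster and ZNF722 stood at 8.87% and 9.90% in WT and at 66.6% and 44.8% in ZNF274KO. The stretch of 163 kb between ZNF736 and ZNF680 went from 30.02% and 27.5% to 71.2% and 64.6%. Over the 6 stretches from the centromeric edge to ZNF680 the difference between genotypes was 31.1 to 46.3 points, in no steady order. Beyond ZNF680 it was smaller from stretch to stretch: 30.6 points between ZNF680 and ZNF107, 20.9 between ZNF107 and ZNF138, 12.3 between ZNF138 and ZNF273, 10.9 between ZNF273 and ZNF117, and -0.273 in the 372 kb between ERV3-1 and ZNF92. In that last stretch WT 1, WT 2, ZNF274KO 1 and ZNF274KO 2 were at 74.3%, 74.5%, 74.7% and 73.6%, so the genotypes overlapped.

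Among gene bodies, 4 of the 12 rose and 0 fell, beside 0.772% higher and 0.0101% lower of 19828 gene bodies genome-wide. At an unadjusted p under 0.05 in edgeR none was lower. In either direction 7 of the 12 passed that threshold, beside 6.81% of gene bodies genome-wide. Limma called the same 4, beside 0.287% of gene bodies genome-wide. They were the 4 genes nearest the centromere. ZNF722 (chr7:63459227-63478459) was at 2.61% and 2.06% in WT and at 56.0% and 40.7% in ZNF274KO, a rise of 46.0 points (edgeR adjusted p = 0.000132). ZNF727 (chr7:63505812-63545717) went from 10.4% and 9.82% to 62.3% and 50.5%. ZNF735 and ZNF679 follow on the chromosome. ZNF735 (chr7:63667581-63680668) went from 10.2% and 8.36% to 70.5% and 54.7%, and ZNF679 (chr7:63688852-63727309) from 9.35% and 9.36% to 68.9% and 56.0%, the latter a rise of 53.1 points (edgeR adjusted p = 4.59e-05). In all 4 genes ZNF274KO 1 was above ZNF274KO 2, by more than the libraries of WT were apart. The lowest read number behind any of the 12 bodies in a library was 873, and the widest 95% Wilson interval reached 3.25 points either side.

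The other 8 gene bodies were already methylated in WT and did not pass the test. ZNF736 was at 60.4% and 54.5% in WT and at 67.2% and 64.6% in ZNF274KO, and ZNF273 at 65.3% and 61.1% against 72.4% and 68.1%, with both knockout libraries above both WT libraries (edgeR adjusted p = 0.388 and 0.317). ZNF117, whose locus overlaps that of ERV3-1, was at 55.8% and 56.8% against 66.7% and 60.3%. ERV3-1, which encodes the envelope protein of an endogenous retrovirus, had overlapping libraries at 63.9%, 65.2%, 69.8% and 63.5%. ZNF680 and ZNF92 were lower in both knockout libraries than in both WT libraries, with mean differences of -3.0 and -2.85 points (edgeR adjusted p = 0.744 and 0.779), and ZNF107 and ZNF138 had differences of -0.860 and -0.983 points with overlapping libraries. Both knockout libraries were above both WT libraries in 7 of the 12 bodies and below in 2. Genome-wide, 1802 of 19828 gene bodies were above and 6061 below, so the 2 are no more than the background. Over the 12 bodies the median difference was 7.11 points, beside -0.931 over all gene bodies tested.

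**Figure D3:**
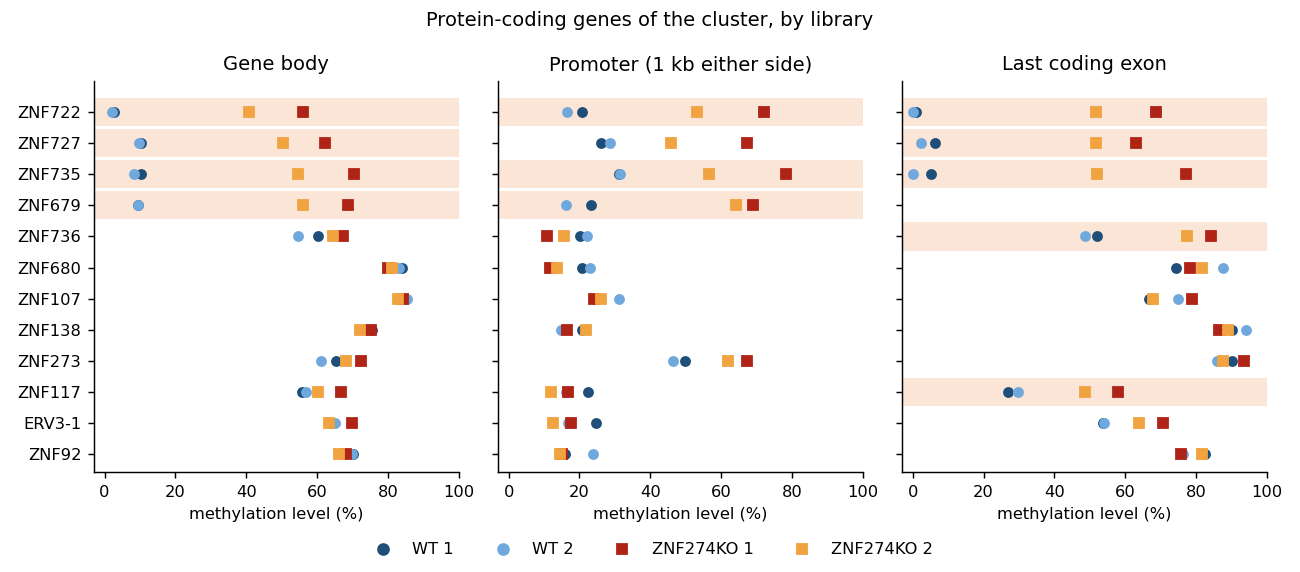
mCG level (percent of reads methylated) of the gene body, the promoter and the last coding exon of each of the 12 genes, from the centromeric side down, 1 point per library (circles WT, squares ZNF274KO), shaded where the region rose. ZNF722, ZNF727, ZNF735 and ZNF679 have all WT points far to the left of all ZNF274KO points in each panel where they were measured, and the last exon of ZNF679 had too few CpGs to test.

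Promoters were taken as 1 kb either side of the start. Of the 12, 3 rose and 0 fell, beside 0.248% higher and 0.0861% lower of 19746 promoters genome-wide. The ZNF679 promoter went from 23.1% and 16.3% in WT to 69.1% and 64.2% in ZNF274KO (edgeR adjusted p = 0.00188). With only its CpGs in sequence that occurs once in the genome, the difference was 31.0 points in place of 47.0 and did not pass the test (edgeR adjusted p = 0.137). The promoter of ZNF722 went from 20.8% and 16.6% to 72.1% and 53.2% (edgeR adjusted p = 0.00303), and that of ZNF735 from 31.2% and 31.3% to 78.4% and 56.7% (edgeR adjusted p = 0.0145). ZNF727 was at 26.0% and 28.6% against 67.3% and 46.0% (edgeR adjusted p = 0.0570), and ZNF273 at 49.8% and 46.3% against 67.4% and 62.0% (edgeR adjusted p = 0.113). For these the libraries did not overlap, but the test was not passed. In both, the rise was larger in ZNF274KO 1. A fit without ZNF274KO 2 leaves 1 library in that group, so its spread would come from WT alone. At an unadjusted p under 0.05 in edgeR, 2 promoters were lower and 7 of the 12 passed in either direction, beside 6.48% of promoters genome-wide. Limma, run on the same regions, called 0 of the 12 and 0% of promoters genome-wide.

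The remaining promoters were low in all libraries. ZNF736 was at 20.3% and 22.0% in WT and at 10.7% and 15.5% in ZNF274KO, and ZNF680 at 20.7% and 22.99% against 11.5% and 13.5%, with both knockout libraries below both WT libraries (edgeR adjusted p = 0.585 and 0.325). ZNF92 was likewise lower, at 15.9% and 23.9% against 15.1% and 14.4%. Libraries of ZNF107, ZNF138, ZNF117 and ERV3-1 overlapped. Both knockout libraries were thus above both WT libraries in 5 of the 12 promoters and below in 3. Genome-wide, 2798 of 19746 promoters were above and 4106 below, so the 3 are near the background. ZNF117 and ERV3-1 have nearly the same promoter window and so share most of their 42 and 43 CpGs. A promoter rested on 123 to 782 reads per library, with a 95% Wilson interval of up to 8.35 points either side. For ZNF722 the printed 250 bases, where single CpGs went both ways, lie in a window that as a whole was at 18.7% ± 2.996 in WT and 62.6% ± 13.4 in ZNF274KO.

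The last coding exon of a KZFP gene holds the code for its zinc fingers, and it was taken whole, with its 3′ untranslated part. It was tested for 11 of the 12 genes, and 5 rose and 0 fell, beside 0.867% higher and 0.0366% lower of 16375 last coding exons genome-wide. None was lower at an unadjusted p under 0.05 in edgeR. In either direction 6 of the 11 passed that threshold, beside 1156 of 16375 last coding exons genome-wide. In ZNF722 it was at 0.813% and 0% in WT, the latter allowing up to 2.56%, and at 68.6% and 51.7% in ZNF274KO (edgeR adjusted p = 1.05e-06). ZNF727 went from 6.13% and 2.29% to 63.1% and 51.8% (edgeR adjusted p = 9.42e-08). ZNF735 went from 5% and 0% to 77.2% and 52.1%, on only 5 CpGs and 32 to 57 reads, so that its 0 allows up to 9.38%.

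The other last exons that rose belong to genes whose bodies did not pass the test. In ZNF736 the last exon went from 52.1% and 48.5% to 84.3% and 77.6% (edgeR adjusted p = 5.03e-05), a rise of 30.6 points beside 8.47 over its whole body. In ZNF117 it went from 26.9% and 29.6% to 58.0% and 48.5% (edgeR adjusted p = 0.00439), a rise of 24.98 points beside 7.20 over the body. ERV3-1 was at 53.6% and 54.0% against 70.7% and 63.9% (edgeR adjusted p = 0.0778). The last exons of ZNF680, ZNF107, ZNF138, ZNF273 and ZNF92 were at 66.8% or more in WT, and their mean differences lay between -4.31 and 2.47 points. None of them passed the test. Limma called 1 of the 11, that of ZNF722 (adjusted p = 0.0412), beside 0.11% genome-wide, and without ZNF274KO 1 the last exon of ZNF117 did not pass (edgeR adjusted p = 0.194). Whether last exons differed from the rest of their genes was not tested.

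Along ZNF722, ZNF727, ZNF735 and ZNF679 the knockout libraries were higher throughout. With the body cut into 10 equal parts and the 10 kb on either side into bins of 2 kb, both knockout libraries were above both WT libraries in 78 of the 78 bins measured (the 8 kb between ZNF735 and ZNF679 count for both genes). These genes are described because their bodies rose, so the count is no further support. The other genes were uneven. Counting bins with both knockout libraries above and below both WT libraries, ZNF736 had 17 and 2 of 20 and ZNF117 13 and 1. ZNF273 had 11 and 4 of 20, ERV3-1 11 and 3 of 19, and ZNF107 9 and 4 of 20. Of 20 bins each, ZNF680 had 7 and 5, ZNF138 6 and 3, and ZNF92 0 and 7. In ZNF736 the 4 bins from 10 to 2 kb before the start were higher by 27.3 to 42.4 points. Part 2 of the 10 was at 37.2% and 28.8% in WT and at 18.5% and 22.3% in ZNF274KO, while the last part was at 51.2% and 49.5% against 81.5% and 75.2%. ZNF680 was below WT in its first part, with 63.6% and 63.7% against 44.3% and 50.3%, and at 92.7% and 93.0% against 89.98% and 94.3% in the next part. In ZNF273 the first part was at 49.8% and 48.3% against 70.8% and 60.5%, and the last at 93.1% and 91.5% against 92.6% and 91.6%. ZNF117 differed most at its far end, where the last part was at 12.1% and 13.9% in WT and at 61.5% and 42.3% in ZNF274KO, on 7 CpGs. These bins were not tested singly.

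**Figure D4:**
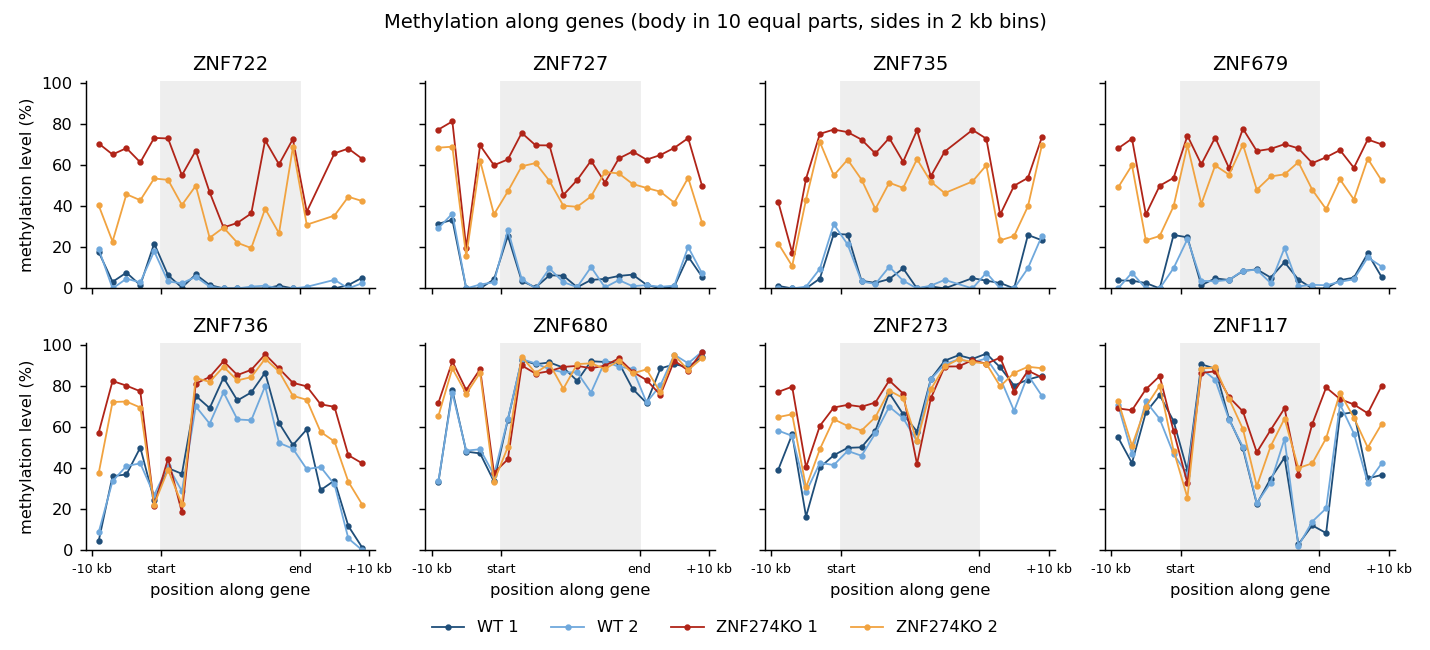
mCG level (percent of reads methylated) along 8 genes in the 4 libraries, from 10 kb before the start to 10 kb after the end, with the body (grey) cut into 10 equal parts and the sides into bins of 2 kb, and bins with under 3 CpGs or 20 reads left out. ZNF722 to ZNF679 differ throughout, ZNF736 on both sides of a stretch around its start, ZNF117 toward the end and ZNF273 before and in the first parts of its body.

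Of the 75 other annotated genes, 57 had at least 20 reads and 5 CpGs in every library. Both knockout libraries were above both WT libraries in 39 of them and below in 4, and 30 had a difference of 20 points or more. Genome-wide, 13.5% and 22.3% of 5 kb tiles were above and below, and 1802 and 6061 of 19828 protein-coding gene bodies. The 57 genes differ widely in length, so neither share is a like-for-like background. These genes were not tested singly, and they share tiles with each other and with coding genes. Among 19 processed pseudogenes, which are retrocopies of messenger RNAs, 13 were above, and among 18 long noncoding RNAs, 13, near the share of all 57. GUSBP6, a pseudogene of the beta-glucuronidase gene, was at 14.8% and 15.7% in WT and at 65.9% and 49.6% in ZNF274KO. Within it lie pseudogenes of mitochondrial genes, a nuclear copy of mitochondrial DNA. Its MTCO2P8 was at 0% in both WT libraries, with 63 or more reads each, which allows up to 4.76%, and at 37.3% and 17.3% in ZNF274KO, and its MTCO1P8 went from 20.1% and 30.7% to 68.4% and 51.7%. The noncoding LINC01005 was at 2.71% and 1.53% against 67.1% and 48.8%. By contrast SAPCD2P1, a processed pseudogene with 114 CpGs between ZNF727 and ZNF735, was already at 79.8% and 77.6% in WT and stood at 85.2% and 83.1% in ZNF274KO. On the far side of ERV3-1, CCT6P3 and INTS4P1 lay between 72.6% and 91.1% in all libraries. Only 8.91% to 39.5% of their CpGs lie in sequence that occurs once in the genome.

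Single CpGs were described where each library had 5 reads or more, which left 10763. The WT mean was under 20% at 38.0% of them and over 80% at 39.5%, and in ZNF274KO these shares were 14.3% and 50.3%. There were 1614 CpGs with a WT mean under 20% and a ZNF274KO mean of 50% or more, and 18 that went from 50% or more to under 20%. Another 1443 stayed under 20% in both genotypes. The same counts were not taken genome-wide, so they have no background here. In tiles that rose, 206 CpGs were covered 10 times or more in each library. That is a small part, since the longest run alone holds 1979 CpGs. These tiles were picked because they rose, so the contrast at these 206 CpGs is no further support. Of these, 53.4% and 48.1% had no methylated read in WT 1 and WT 2, against 2.91% and 9.22% in ZNF274KO 1 and ZNF274KO 2. In the knockout libraries 46.6% and 48.5% of these CpGs were between 20% and 80%, and 43.2% and 31.1% were over 80%.

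The cluster was then set against equally long stretches before and after it on chromosome 7. The level of the cluster minus that of both flanks, pooled by reads, was -7.93 and -9.79 points in WT and 4.31 and 2.91 points in ZNF274KO, a difference of 12.5 points (exact permutation p = 0.333, the smallest possible). Against the flank after it was 16.6 points and against the flank before 10.5. The flank before is a poor yardstick, since 1 block of 100 kb in it holds 79.1% to 80.1% of its reads. Its last 10 blocks also differed between genotypes, by 14.3 to 41.9 points (below). Without very deep CpGs the difference against both flanks was 9.28 points. The 12.5 points are therefore not set against surroundings without a difference.

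In blocks of 100 kb the difference did not begin at the edge of the cluster. The first 6 blocks of the flank before, which lie toward the centromere, differed by 0.550 to 3.16 points. The last 10 differed by 14.3 to 41.9 points. Blocks were not tested singly, and neighbouring blocks are not independent. In much of these 10 blocks sequence that occurs once is rare, at 7.89% to 74.4% of CpGs, and the depth is low. Next came the first 5 blocks of the cluster, with WT means of 9.75% to 26.5% and ZNF274KO means of 49.7% to 64.6%. In the next 6 blocks, WT was at 47.2% to 62.8% and the difference was 7.46 to 27.9 points. In the last 5 blocks of the cluster the difference lay between -1.87 and 0.197 points, and in the 16 blocks of the flank after between -2.21 and 0.984. Sequence that occurs once is limited there too, at 22.3% to 57.2% and 19.7% to 71.6% of CpGs.

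**Figure D5:**
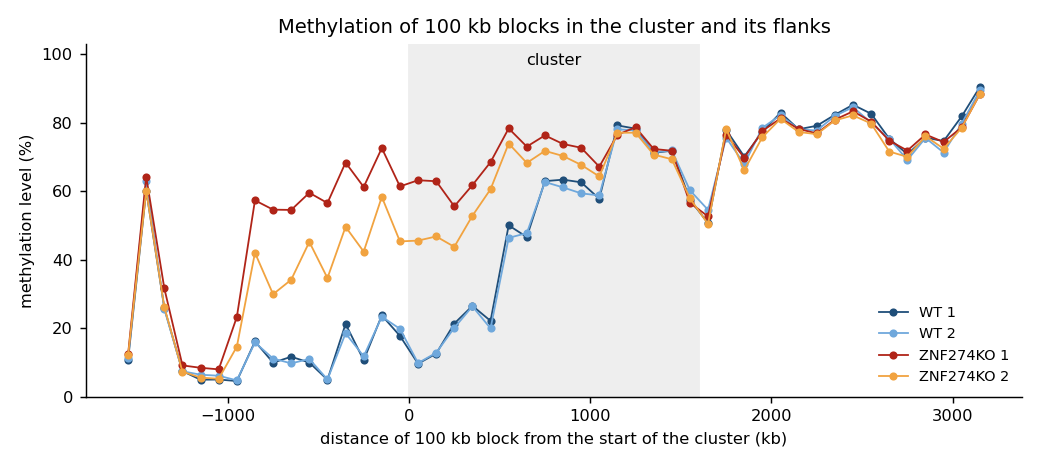
mCG level (percent of reads methylated) of blocks of 100 kb in the 4 libraries against distance from the start of the cluster in kb, with the cluster shaded. The knockout libraries leave the WT libraries about 1000 kb before the cluster and meet them again 1100 kb into it, ZNF274KO 1 staying above ZNF274KO 2 in between.

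Of the 16742 CpGs of the cluster, 57.4% lay in sequence that occurs once in the genome after conversion, judged over 50 bases around the CpG. Tiles that rose had a median of 68.2% such CpGs and tiles not called 52.9%. With these CpGs alone in the cluster, 119 of 303 tiles rose (beside 0.42% of all tiles of that fit), the last exon of ZNF735 had too few CpGs to test, and the body differences of ZNF722, ZNF727, ZNF735 and ZNF679 were 47.1, 44.9, 49.7 and 52.8 points.

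Finally, genes of heterochromatin, DNA methylation and chromosome looping were examined for their own mCG, as 28 genes that include TRIM28 and SETDB1, the heterochromatin proteins CBX1, CBX3 and CBX5, the human silencing hub genes, the DNA methyltransferases DNMT1, DNMT3A and DNMT3B, the demethylating enzymes TET1, TET2 and TET3, and CTCF and the cohesin subunit RAD21. Of the 28 gene bodies and the 28 promoters, 0 were called by edgeR and 0 by limma. Genome-wide, edgeR called 0.782% of bodies and 0.334% of promoters, and limma 0.287% and 0%. With shares this low, a count of 0 among 28 says little. At an unadjusted p under 0.05 in edgeR there were 3 bodies, those of SETD2, SUV39H2 and CBX5, and 1 promoter, that of ATF7IP, all lower in ZNF274KO on the mean, beside 6.81% of bodies and 6.48% of promoters genome-wide at that threshold, so the counts are near the background. The median difference was -0.743 points for bodies and -0.388 for promoters, beside -0.931 and -0.207 over all tested.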

How the data were processed

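EM-seq libraries from HEK293T cells, WT and ZNF274KO, were grouped and numbered by their labels, with 2 per group. The authors mapped the reads to hg19 with an rDNA sequence added, using Msuite2 with HISAT2 (named in the submitters' processing notes), and deposited read counts of C and T per CpG and strand, 1 table per library, without pooling or normalisation. Filters on mapping quality and duplicates were not given in the sources used here. Only CpGs with a read are listed. Where sequence is repeated, reads can be shared between copies. Intervals and limits of a count of 0 (3 counts) cover counting error only.

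All positions fell on a CG of GRCh37, and genes came from GENCODE release 44 mapped to that build. The mCG level is methylated reads over all reads, summed per region. A region was kept with 20 reads and 5 CpGs or more in all libraries. Counts were tested in all regions of a kind with edgeR 4.0.16 (R 4.3.3) and its quasi-likelihood test, as a quasi-binomial model with a coefficient per library, and adjusted over all of them (Benjamini-Hochberg). The spread was modelled per region and moderated across regions, a choice made on simulated reads. There the changed regions had middle levels in WT and less spread than ZNF274KO had in the longest run. Changes from a low WT level, as in most tiles that rose, were not simulated. A common dispersion was added as an alternative. Levels of the cluster were compared by exact permutation. Alternatives are given with their effect at the end. Limma 3.58.1 used log2 ratios with a pseudocount of 1. Sequences were read from GRCh37. The genome used here carries no repeat mask.

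Named were all protein-coding genes of the cluster, the 5 largest rises and the 5 lowest differences among tested tiles with at least 20 CpGs, runs of at least 3 tiles, and genes of the chromatin list where called. Noncoding genes, the unadjusted calls of that list and the printed stretches of 300 bases were picked once values were known. The cluster and the lists were chosen with earlier results of these data known. Tables used pandas 2.3.3, numpy 2.4.6 and scipy 1.17.1 under Python 3.11.15, and figures matplotlib 3.10.9.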

Additional observations from a re-analysis of the deposited data

How the results depend on the processing

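With 2 libraries per genotype the exact permutation test of the cluster's level cannot go below 0.333, and the region calls rest on a spread per region that edgeR moderates across regions. Where edgeR called 134 of the 319 tiles, limma called 69, and it called 4 gene bodies, 0 of 12 promoters and 1 of 11 last exons, that of ZNF722. With tiles of 2 kb edgeR called 312 of 763, beside 0.484% called genome-wide. Of the 763, 5 were called lower, beside 0.0236% lower genome-wide. With tiles of 10 kb it called 61 of 160 (0.37% genome-wide). Leaving out 1 library gave 104 to 150 tiles, 4 to 6 gene bodies, 3 to 5 promoters and 4 to 6 last exons, with the fewest tiles without ZNF274KO 1, while the share of all tiles called genome-wide went from 0.434% to between 0.272% without ZNF274KO 1 and 1.13% without WT 2, of bodies to 0.444% to 1.55%, of promoters to 0.324% to 0.708% and of last exons to 0.634% to 1.29%. The last exon of ZNF117 was not called without ZNF274KO 1 (edgeR adjusted p = 0.194). Each fit without a library leaves 1 library in a group, so its spread comes from the other genotype alone. Calls that such a fit adds or drops are a description. A replicate block called 150 tiles (3 lower), 5 gene bodies (ZNF273 in addition, adjusted p = 0.0491), 5 promoters and 6 last exons, and a crossed block, chosen after seeing the data because deviations of same-numbered libraries had r = -0.11 over all tiles, 160 tiles (4 lower), 4 gene bodies, 5 promoters and 6 last exons. Of all tiles genome-wide, the replicate block called 0.64% (0.0392% lower) and the crossed block 1.2% (0.15% lower), and of 19746 promoters 222 and 188 in place of 66, of bodies 1.02% and 1.33% in place of 0.782%, and of last exons 1.81% and 1.39% in place of 0.904%, so more was called everywhere. Beside the 0 lower tiles of the report, 1 was called lower without WT 1, without WT 2, without ZNF274KO 2, with a common dispersion and when centred on the genome-wide level, where 0.167%, 0.0561%, 0.0101%, 0.013% and 0.0144% of all tiles were called lower, against 0.0105% in the report. The difference of the cluster's level was 15.2 to 16.8 points under other ways of taking it, 12.8 to 18.5 with 1 library left out, and 18.3 and 13.0 within replicate numbers 1 and 2. Against the flanks it was 9.28 points without very deep CpGs, 14.8 with sequence that occurs once on both sides (added after seeing the data), 10.5 against the flank before, 16.6 against the flank after, 16.2 against all autosomes and X, 11.5 to 13.4 with 1 library left out, and 12.2 and 12.7 within replicate numbers. The 75th percentile over CpGs, the study's own summary, gave 67.1 to 79.2 points for the 4 gene bodies that rose. No gene body, promoter or last exon that was called changed sign under these settings. The named tiles and runs were not followed through them singly. For each of these the cause was not tested.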
